A study of Mus musculus with 28 samples.

Results

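The 28 genes described here encode the enzymes that make cholesterol and the proteins that set how strongly the transcription factor SREBP2 is active. They were taken by name from a list of 28 genes, and all 28 were present among the 54163 genes of the liver table and the 54189 genes of the muscle table at 40 days, and the 54501 genes of the table at 24 hours. The list holds 8 genes of the early pathway, 11 of the late pathway, 4 SREBP2 regulators and 5 genes of sterol transfer, esterification, receptor turnover and a side branch. RNA-seq was made from liver and muscle of male Lepob/Lepob C57BL/6J mice, which lack the appetite hormone leptin and become obese. The mice went onto the AMLN diet at 4 weeks of age and stayed on it for 20 weeks to give a model of fatty liver inflammation, and kept it during treatment. In that diet fat supplied 40% and fructose 20% of the calories, and cholesterol made up 2% of the weight. Treated mice received acetylsalicylate (aspirin) at 3.0 mg/kg and trimetazidine, an inhibitor of fatty acid oxidation, at 5.0 mg/kg, given together each day into the peritoneum, and vehicle mice received solvent. At 40 days there were 6 treated and 6 vehicle libraries of each tissue, and at 24 hours 1 treated and 1 vehicle library of each tissue. Genotype, diet and sex were the same in every group, so no lean mouse, no animal on another diet and no animal on either drug alone enters these comparisons. The labels do not name the muscle.

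Cells build cholesterol from acetyl-CoA. The early steps run through mevalonate to the isoprenoid farnesyl diphosphate and then squalene, and the late steps turn squalene into lanosterol and lanosterol into cholesterol. SREBP2, the product of Srebf2, is held in the endoplasmic reticulum by SCAP and the INSIG proteins when sterols are plentiful. When sterols fall, SCAP carries it to the Golgi, where proteases release the part that enters the nucleus and switches on the genes of the pathway. A diet rich in cholesterol is known to keep this system low in liver.

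SREBP2 acts through sterol regulatory elements near the start sites of its target genes, commonly with the factors NF-Y and SP1, so the promoters of 5 members are shown. Hmgcs1, Acat2 and Insig1 are the members with a match to CACNCCAC, the core of the sterol regulatory element, and Cyp51 and Sc5d are late enzymes among those with the smallest p-values in liver. Each line gives the 250 bases before the start site, 5′ to 3′ on the strand of the gene, from RefSeq (GRCm38.p6). Capitals mark matches to CACNCCAC or to CCAAT, the letters bound by NF-Y, on either strand.
Hmgcs1 (chr13:119690101-119690350, plus strand): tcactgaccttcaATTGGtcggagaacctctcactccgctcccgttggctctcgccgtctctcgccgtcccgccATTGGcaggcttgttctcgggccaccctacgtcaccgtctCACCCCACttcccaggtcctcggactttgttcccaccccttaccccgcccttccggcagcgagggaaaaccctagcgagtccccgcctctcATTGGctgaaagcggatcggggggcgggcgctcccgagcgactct
Acat2 (chr17:12960726-12960975, minus strand): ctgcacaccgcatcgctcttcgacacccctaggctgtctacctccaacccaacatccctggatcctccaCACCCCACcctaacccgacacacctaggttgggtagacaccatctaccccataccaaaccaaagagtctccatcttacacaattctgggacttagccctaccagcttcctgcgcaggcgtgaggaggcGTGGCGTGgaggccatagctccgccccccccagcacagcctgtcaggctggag
Insig1 (chr5:28071162-28071411, plus strand): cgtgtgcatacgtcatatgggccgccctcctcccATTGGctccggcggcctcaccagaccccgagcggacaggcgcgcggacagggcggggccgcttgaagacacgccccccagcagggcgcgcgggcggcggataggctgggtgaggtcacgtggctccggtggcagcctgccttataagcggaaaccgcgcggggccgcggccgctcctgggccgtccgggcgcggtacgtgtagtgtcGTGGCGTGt
Cyp51 (chr5:4104698-4104947, minus strand): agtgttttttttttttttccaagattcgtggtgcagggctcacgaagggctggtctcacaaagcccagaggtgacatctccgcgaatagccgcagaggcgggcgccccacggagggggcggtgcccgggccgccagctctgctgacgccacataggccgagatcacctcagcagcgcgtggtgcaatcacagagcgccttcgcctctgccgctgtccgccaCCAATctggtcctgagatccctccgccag
Sc5d (chr9:42264301-42264550, minus strand): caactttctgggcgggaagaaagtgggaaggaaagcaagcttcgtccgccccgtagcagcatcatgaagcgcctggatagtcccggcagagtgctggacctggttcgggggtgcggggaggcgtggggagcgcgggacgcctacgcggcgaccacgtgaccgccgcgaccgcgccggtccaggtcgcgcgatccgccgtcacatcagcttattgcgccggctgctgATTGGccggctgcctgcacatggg
In these 5 windows no CACNCCAC match overlapped a CCAAT match. The element in Hmgcs1 began 136 bases before the start site and lay between CCAAT matches that began 176 and 45 bases before it. Acat2 had CACNCCAC matches that began 181 and 53 bases before the start site and no CCAAT match. Over windows of 300 bases, from 250 before to 50 after the start, 23 of the 28 members had at least 1 window, the others being Fdps, Fdft1, Sqle, Stard4 and Soat2. CACNCCAC was present in 3 of the 23, against 7.56% of the 7977 genes tested in liver that had a window. CCAAT was present in 21 of the 23, against 42.4% of those genes. The E-box CACGTG was present in 5 of the 23, against 12.4%, and the SP1 letters GGGCGG in 21 of the 23, against 68.0%. These are matches of letters, not measurements of binding.

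The libraries held 16.1 to 19.9 M reads each. Expression was given as FPKM, read counts scaled to exon length and to a factor for each library. That factor was not the read total. In treated liver 5_3 it was 15.4 M beside 16.8 M reads, and in treated liver 5_5 it was 18.7 M beside 17.9 M reads. Marker genes matched the labelled tissues. The 5 hepatocyte markers summed to 16875 to 35059 FPKM in treated livers and 26942 to 32882 FPKM in vehicle livers. The 5 muscle fibre markers summed to 33279 to 49571 FPKM in treated muscles and 29404 to 55697 FPKM in vehicle muscles. Libraries are called below by the number in their label, such as 5_5. The first digit of that number was 4 or 5 in treated libraries and 2, 3 or 6 in vehicle libraries, so anything that this digit marks cannot be told apart from the treatment. Treated muscle library 5_5 stood apart from the other muscles, with a median correlation of 0.955 with them, and treated liver libraries 4_5 and 5_5 had the lowest median correlations among livers, 0.966 and 0.967. Nothing in the labels says whether libraries came from single animals, so p-values measure the spread between these libraries. In whole tissue, fewer cells of a type and less RNA per cell cannot be told apart.

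In liver after 40 days, 16 of the 18 synthesis enzymes tested had a lower mean in treated than in vehicle livers, but no member passed the test. Over all 27 members tested, 21 had a log2 fold change below 0, beside 51% of all genes. Genes were tested on log2(FPKM + 1) with limma, with Benjamini-Hochberg adjustment over 10995 genes and a threshold of 0.05. Of the 28 members 27 reached the expression minimum of 1 FPKM in at least 6 of the 12 livers, and 0 had an adjusted p under 0.05, by limma on these values and by voom on reads recovered from them. Over all genes tested, 0.1% were called higher and 0.155% lower. At an unadjusted p under 0.05 there were 9 members, all lower in treated livers and all of them enzymes, 3 early and 6 late. That was 33.3% of the 27 members tested and 50% of the 18 enzymes tested, beside 7.35% of all genes lower at that level and 5.88% higher. Leaving out vehicle library 3_2 brought the 9 members to 5, and leaving out treated library 5_3 or 5_5 brought them to 6. The median log2 fold change was -0.28 for the 7 early enzymes tested, -0.38 for the 11 late enzymes, -0.18 for the 4 regulators and 0.09 for the 5 other genes, beside a median near 0 (-0.003) over all genes. The groups of no member were free of overlap, beside 0.728% of all genes with every treated liver below every vehicle liver and 0.427% with every treated liver above.

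**Figure D1:**
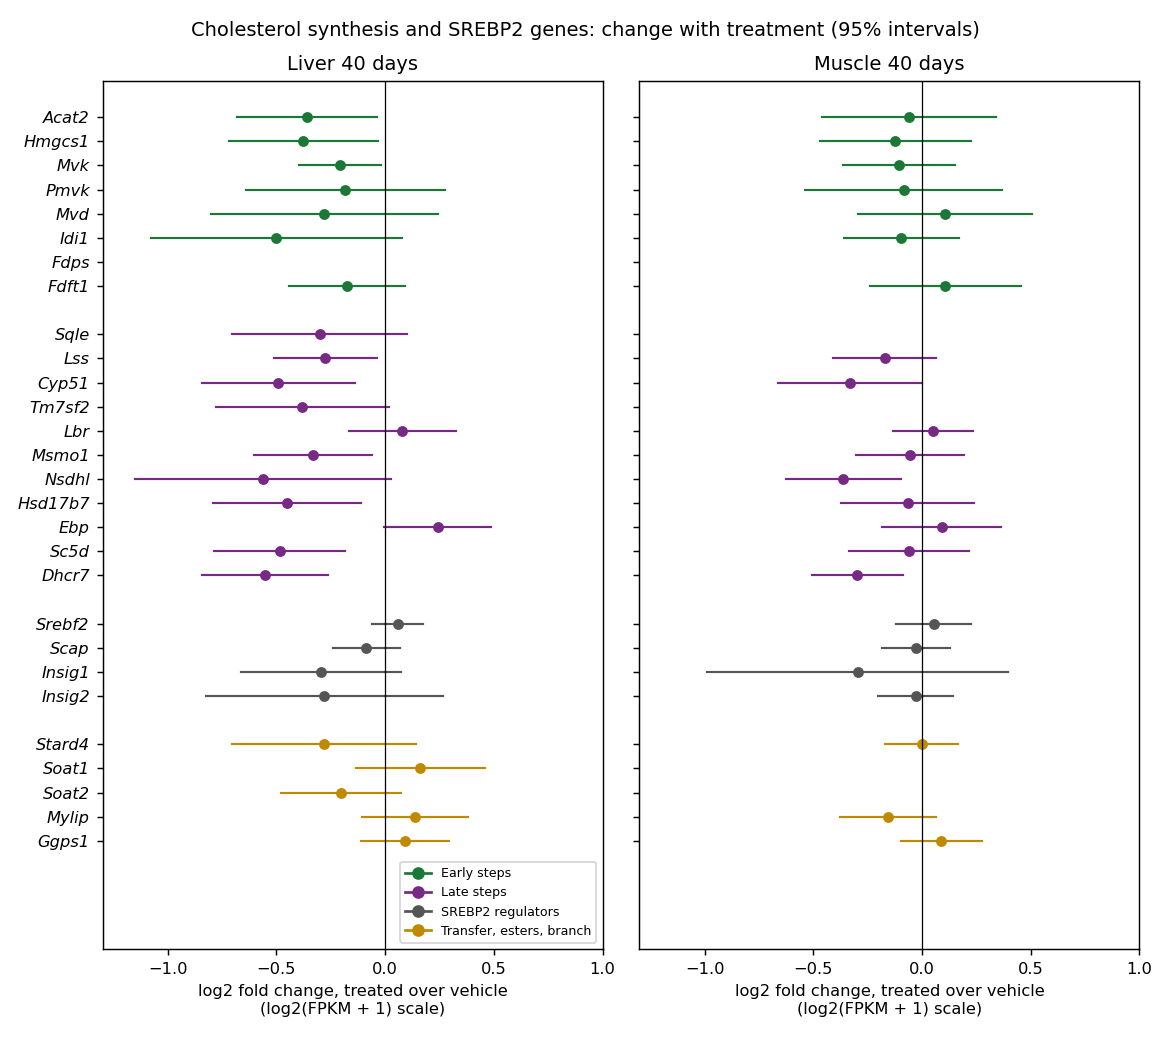
Log2 fold change of each tested member, treated over vehicle, in liver (left) and muscle (right) at 40 days on the log2(FPKM + 1) scale, with 95% intervals from limma (6 libraries a group); colours give the role in the pathway and genes without a point were not tested. In liver most early and late enzymes lie left of 0 with medians of -0.28 and -0.38, while in muscle the medians of -0.08 and -0.07 are close to 0.

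Among the early enzymes, the 7 tested all had lower means in treated livers, with log2 fold changes between -0.50 and -0.18. Hmgcs1 (GRCm38 chromosome 13, 119690379 to 119708260, plus strand) makes HMG-CoA, the first compound specific to the mevalonate route. Its FPKM had a lowest, median and highest value of 23.9, 29.2 and 45.4 in treated livers, against 32.1, 40.4 and 52.9 in vehicle livers. Treated livers 5_5, 5_3, 5_4 and 5_2 lay below every vehicle liver, and treated liver 4_5 lay above all but the highest vehicle liver. The log2 fold change was -0.38 ± 0.16 (SE, n = 6 a group; limma, unadjusted p = 0.034, adjusted p = 0.336). Acat2, the cytosolic thiolase that joins 2 acetyl-CoA, had 17.9, 30.6 and 35.1 FPKM in treated livers, against 29.4, 36.0 and 44.4 FPKM in vehicle livers. All 6 treated livers were below the vehicle mean and 2 were below every vehicle liver, and the log2 fold change was -0.36 ± 0.15 (adjusted p = 0.327 by limma). Mvk, which phosphorylates mevalonate, averaged 4.96 ± 0.569 FPKM in treated livers and 5.89 ± 0.802 FPKM in vehicle livers (SD, n = 6 each), with all 6 treated livers below the vehicle mean. Its log2 fold change of -0.21 ± 0.09 had an adjusted p of 0.338 by limma.

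The other early enzymes tested had an unadjusted p above 0.05. Idi1, the isomerase of isopentenyl diphosphate, averaged 4.56 ± 2.22 FPKM in treated livers and 6.40 ± 1.64 FPKM in vehicle livers, a log2 fold change of -0.50 with a 95% interval from -1.08 to 0.08. Pmvk and Mvd, the next steps after Mvk, averaged 16.6 ± 5.01 and 7.05 ± 2.51 FPKM in treated livers, against 18.8 ± 5.05 and 8.75 ± 2.99 FPKM in vehicle livers. Fdft1, squalene synthase, averaged 20.2 ± 4.42 FPKM in treated livers and 22.6 ± 1.83 FPKM in vehicle livers. Fdps, farnesyl diphosphate synthase, was below the expression minimum, with 0.526 ± 0.219 FPKM in treated livers and 1.10 ± 0.555 FPKM in vehicle livers.

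Some of these values depend on how reads were shared between look-alike genes, a step not given in the sources used here. Transcripts of Fdps align to 5 processed pseudogenes at 91.1% identity or more. The closest, Gm3571 (98.9% over 1062 bases), was listed well above Fdps itself, with 11.4 ± 4.00 FPKM in treated livers and 20.9 ± 7.31 FPKM in vehicle livers. Its log2 fold change was -0.83 ± 0.26 (adjusted p = 0.206 by limma), so the level of Fdps in these tables is uncertain. Acat2 shares 97.7% identity over 1477 bases with the neighbouring Acat3, which averaged 42.3 ± 7.31 FPKM in treated livers and 50.2 ± 7.99 FPKM in vehicle livers. Idi1 has 4 pseudogene copies, and Fdft1 and Ggps1 have 1 each, so these too are uncertain. Exons of other genes on the opposite strand cover 18.3% of the exonic bases of Fdft1, 13.2% of Scap and 12.1% of Hmgcs1, and strand use in counting was also not given in the sources used here. On the same strand, 26.7% of the exonic bases of Fdps are shared with other genes, chiefly Gm43738, and 12.1% of those of Tm7sf2 with Vps51.

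Among the late enzymes, 9 of 11 had lower means in treated livers. Dhcr7 (chromosome 7, 143823145 to 143848410, plus strand), the reductase that makes cholesterol from 7-dehydrocholesterol, had the smallest p of all members. Its lowest, median and highest FPKM were 5.49, 8.56 and 9.99 in treated livers, against 9.98, 11.8 and 15.5 in vehicle livers. The groups overlapped only by the highest treated and the lowest vehicle liver, and 5 of the 6 treated livers lay below every vehicle liver. The log2 fold change was -0.55 ± 0.13 (SE; limma, unadjusted p = 0.00115, adjusted p = 0.123). Sc5d (chromosome 9, 42251595 to 42264256, minus strand), the desaturase of the preceding step, had 57.0, 74.1 and 91.4 FPKM in treated livers, against 84.8, 95.5 and 139.0 FPKM in vehicle livers. Again 5 of the 6 treated livers lay below every vehicle liver, with a log2 fold change of -0.49 ± 0.14 (adjusted p = 0.175 by limma). Cyp51 (chromosome 5, 4081145 to 4104746, minus strand), the demethylase of lanosterol, had 6.96, 11.6 and 14.6 FPKM in treated livers, against 13.1, 14.2 and 20.5 FPKM in vehicle livers. Here too 5 of 6 treated livers were below every vehicle liver, and the log2 fold change was -0.49 ± 0.16 (adjusted p = 0.220 by limma).

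Hsd17b7, Msmo1 and Lss, also late enzymes, completed those with an unadjusted p under 0.05. Hsd17b7, a keto-reductase that acts with Nsdhl in removing methyl groups from the sterol ring, had 4.62, 8.37 and 9.14 FPKM in treated livers, against 7.88, 10.2 and 13.2 FPKM in vehicle livers. All 6 treated livers were below the vehicle mean, libraries 5_3 and 5_5 were below every vehicle liver, and the log2 fold change was -0.45 ± 0.16 (adjusted p = 0.245 by limma). Msmo1, the methyl sterol oxidase, had 4.47, 6.57 and 7.81 FPKM in treated livers, against 6.00, 8.56 and 9.16 FPKM in vehicle livers. Its log2 fold change was -0.33 ± 0.13 (adjusted p = 0.283 by limma), and vehicle library 2_4 lay well below the other vehicle livers. Lss, which closes squalene epoxide into lanosterol, had 1.78, 2.82 and 3.45 FPKM in treated livers, against 2.99, 3.35 and 4.39 FPKM in vehicle livers. All but 1 treated liver lay below every vehicle liver, with a log2 fold change of -0.27 ± 0.11 (adjusted p = 0.307 by limma).

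Sqle, squalene epoxidase and a rate-controlling step of the late pathway, had 1.65, 2.80 and 4.39 FPKM in treated livers, against 2.75, 3.44 and 5.57 FPKM in vehicle livers. The groups overlapped broadly, and the log2 fold change of -0.30 ± 0.19 had an adjusted p of 0.521 by limma. Nsdhl had the lowest log2 fold change of the members tested, -0.56, but its 95% interval ran from -1.15 to 0.03. It averaged 9.35 ± 4.34 FPKM in treated livers and 13.2 ± 2.87 FPKM in vehicle livers. Tm7sf2, a sterol reductase, averaged 7.40 ± 2.61 FPKM in treated livers and 9.52 ± 1.19 FPKM in vehicle livers. Ebp and Lbr were the late enzymes with a higher mean in treated livers. Ebp, the isomerase of the sterol ring, averaged 70.9 ± 13.8 FPKM in treated livers and 59.2 ± 4.72 FPKM in vehicle livers, with 4 treated livers above every vehicle liver and an adjusted p of 0.385 by limma. Lbr, a reductase that also anchors chromatin at the nuclear envelope, averaged 2.11 ± 0.614 FPKM in treated livers and 1.91 ± 0.240 FPKM in vehicle livers, and its direction turned without library 4_5, to a log2 fold change of -0.01.

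**Figure D2:**
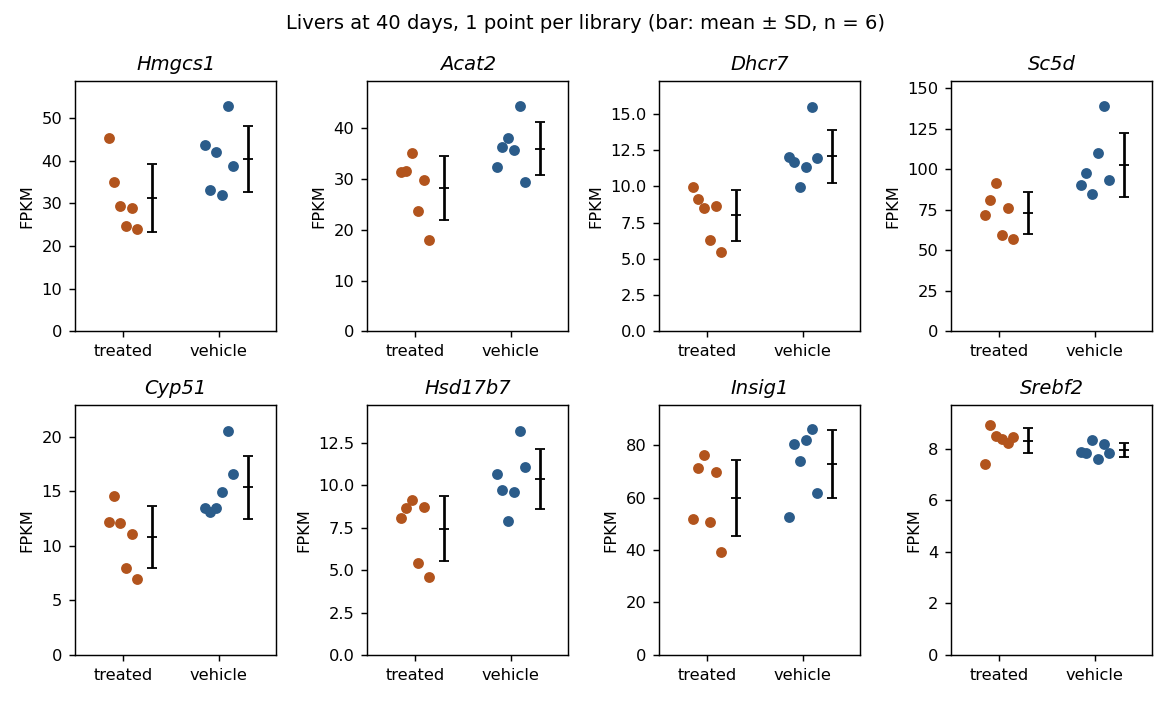
FPKM of 8 members in each of the 12 livers at 40 days, treated left of vehicle, with the mean and SD of 6 libraries beside the points. Dhcr7, Sc5d and Cyp51 each have 5 of 6 treated livers below every vehicle liver, whereas the treated livers for Srebf2 lie between 7.42 and 8.91 FPKM, around the vehicle livers.

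Srebf2 itself was not among the genes with lower means. It had a lowest, median and highest value of 7.42, 8.41 and 8.91 FPKM in treated livers, against 7.62, 7.84 and 8.33 FPKM in vehicle livers. The groups overlapped, with 4 treated livers above every vehicle liver, and the log2 fold change was 0.06 with a 95% interval from -0.06 to 0.18 (adjusted p = 0.685 by limma). Scap, which escorts SREBP2 to the Golgi, averaged 8.28 ± 0.815 FPKM in treated livers and 8.83 ± 0.650 FPKM in vehicle livers. Insig1 (chromosome 5, 28071363 to 28078662, plus strand), a retention protein that is itself an SREBP target, had 39.2, 60.8 and 76.1 FPKM in treated livers, against 52.7, 77.2 and 86.0 FPKM in vehicle livers. Treated libraries 4_5, 5_3 and 5_5 lay below every vehicle liver and the rest lay within the vehicle range, for a log2 fold change of -0.30 ± 0.17 (adjusted p = 0.484 by limma). Insig2, the related retention protein, spread from 49.6 to 99.3 FPKM in treated livers and from 46.7 to 134.9 FPKM in vehicle livers.

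The genes around the pathway had no common direction in liver. Stard4, a carrier of cholesterol between membranes, averaged 10.8 ± 3.87 FPKM in treated livers and 13.0 ± 2.55 FPKM in vehicle livers. Soat2, the enzyme that esterifies cholesterol in hepatocytes, averaged 17.0 ± 2.61 FPKM in treated livers and 19.8 ± 3.54 FPKM in vehicle livers. Soat1, which esterifies cholesterol in macrophages and many other cells, averaged 2.02 ± 0.820 FPKM in treated livers and 1.64 ± 0.238 FPKM in vehicle livers. Mylip, a ubiquitin ligase for lipoprotein receptors that is switched on by the oxysterol receptor LXR, averaged 6.31 ± 1.496 FPKM in treated livers and 5.56 ± 0.548 FPKM in vehicle livers. Soat1 and Mylip were both highest in treated library 4_5, at 3.63 and 9.20 FPKM. Ggps1, which leads farnesyl diphosphate into protein prenylation, averaged 2.17 ± 0.205 FPKM in treated livers and 2.00 ± 0.493 FPKM in vehicle livers.

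The lower means in treated livers came unevenly from the 6 libraries. Averaged over the 18 enzymes tested, the difference in log2(FPKM + 1) from the vehicle mean was -0.77 in treated library 5_5 and -0.56 in 5_3. It was -0.23 in 5_4, -0.17 in 4_5, -0.10 in 5_2 and -0.04 in 5_1. The vehicle libraries lay between -0.11 and -0.01 except 3_2, at 0.29. Library 5_5 was the lowest of the 12 livers for 12 of the 18 enzymes and 3_2 the highest for 14 of them. The early and late steps were lowest in the same libraries, with 5_5 at -0.80 and -0.75 and 5_3 at -0.48 and -0.60, while the regulators in these libraries lay at -0.28 and -0.06.

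**Figure D3:**
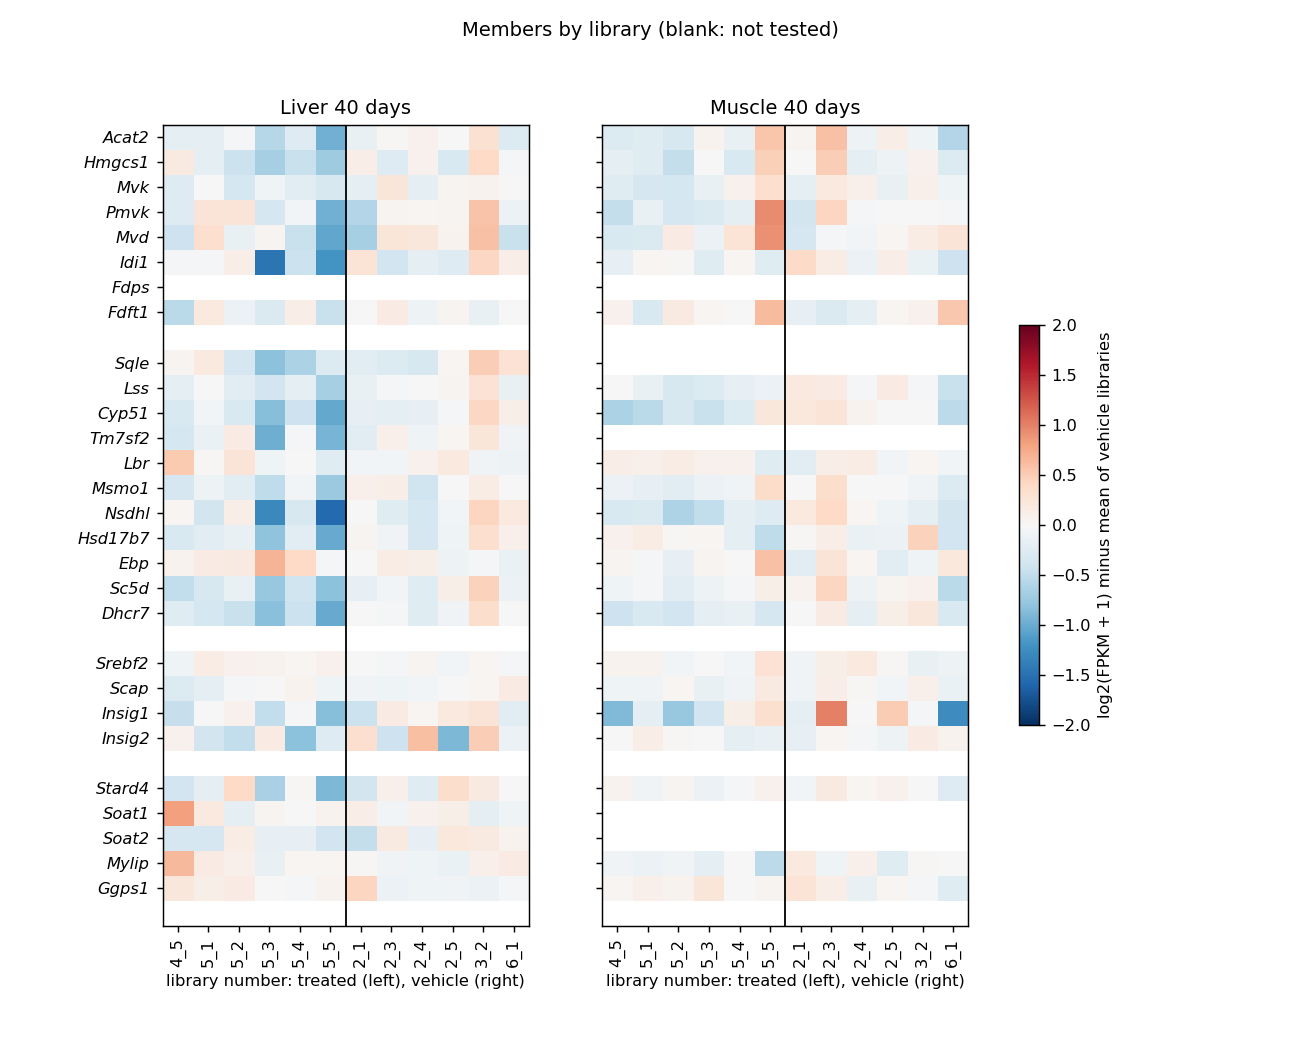
Difference of each tested member from the vehicle mean in log2(FPKM + 1), for every library of liver (left panel) and muscle (right panel) at 40 days; treated libraries stand left of the black line and vehicle libraries right of it. In liver the deepest blue lies in treated libraries 5_3 and 5_5. In muscle the average over the early steps was highest in treated library 5_5 (0.52) and vehicle library 2_3 (0.22). Single genes departed from this, such as Fdft1, which was low in 2_3 and high in vehicle library 6_1.

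Markers of cell types also differed in these livers. The hepatocyte marker sum was 16875 FPKM in treated library 5_5, the lowest of all livers, and 25279 FPKM in 5_3. Of the 5 hepatocyte markers 4 had lower means in treated livers, and Serpina1b averaged 1219 ± 298 FPKM in treated livers and 1201 ± 103 FPKM in vehicle livers. The neutrophil markers summed to 28.8 to 440.2 FPKM in treated livers and 10.7 to 18.1 FPKM in vehicle livers, with 116.1 FPKM in 5_5, 113.4 FPKM in 5_3 and 440.2 FPKM in 4_5. Of the 5 neutrophil markers 3 were tested and S100a9 was called higher, with 77.0 ± 85.6 FPKM in treated livers and 7.87 ± 2.37 FPKM in vehicle livers (adjusted p = 0.045 by limma). The 7 Kupffer cell markers summed to 454.3 to 1572 FPKM in treated livers and 438.4 to 497.6 FPKM in vehicle livers, highest in 4_5. Of these 7, 0 had an unadjusted p under 0.05 by limma. The 5 stellate cell markers summed to 19.4 to 99.7 FPKM in treated livers, highest in 5_5, and 25.9 to 50.8 FPKM in vehicle livers. The 4 red cell markers summed to 483.5 to 2380 FPKM in treated livers and 345.8 to 1412 FPKM in vehicle livers. The part of all these markers in the result was not tested.

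The 4 related lists set the members beside neighbouring lipid genes in liver, and none of their genes was called. A list of 12 fatty acid synthesis genes held Srebf1, which encodes the related factor SREBP1, and targets of that factor. All 12 had a log2 fold change below 0 in treated livers, beside 51% of all genes, with a median of -0.80. At an unadjusted p under 0.05 by limma, 10 of the 12 were lower, beside 7.35% of all genes lower. Fasn, fatty acid synthase, averaged 62.9 ± 22.8 FPKM in treated livers and 126.2 ± 44.8 FPKM in vehicle livers, with every treated liver below every vehicle liver (log2 fold change -1.03 ± 0.27, adjusted p = 0.146 by limma). Acacb and Acaca, the acetyl-CoA carboxylases, had log2 fold changes of -0.76 and -0.75 (adjusted p = 0.173 and 0.174 by limma). The sum of the 12 genes was lowest in treated libraries 5_3 and 5_5, at 2888 and 3045 FPKM. That sum was mostly Scd1, which averaged 5878 of 6428 FPKM in treated livers and 9216 of 10190 FPKM in vehicle livers. Averaged over the 12 genes, the difference in log2(FPKM + 1) from the vehicle mean was also lowest in these libraries, at -1.32 in 5_3 and -1.61 in 5_5. Srebf1 itself averaged 81.6 ± 23.1 FPKM in treated livers and 81.3 ± 21.3 FPKM in vehicle livers (log2 fold change -0.01), a gene chosen for mention after its values were seen. Of 12 genes of sterol sensing and efflux, 8 had higher and 4 lower means. Lpcat3, a phospholipid remodelling enzyme, averaged 33.6 ± 3.88 FPKM in treated livers and 46.2 ± 3.55 FPKM in vehicle livers, without overlap of the groups (log2 fold change -0.45, adjusted p = 0.055 by limma). Lipa, the lysosomal lipase that frees cholesterol from esters, averaged 115.6 ± 10.7 FPKM in treated livers and 143.3 ± 11.1 FPKM in vehicle livers (adjusted p = 0.161 by limma). Nr1h3, which encodes LXR alpha, averaged 62.3 ± 10.3 FPKM in treated livers and 52.6 ± 6.39 FPKM in vehicle livers. Of 11 genes of SREBP transport and sterol-dependent degradation, Sec24d and Sec23a, coat proteins of vesicles that leave the endoplasmic reticulum, had log2 fold changes of -0.23 and -0.22 (adjusted p = 0.237 and 0.336 by limma). Of the isoprenoid branch, 10 of 12 genes were tested and 0 had an unadjusted p under 0.05, with Nus1, Fntb and Icmt having the smallest p.

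In muscle after 40 days no member passed the test, and the median changes of the early enzymes, late enzymes and regulators were close to 0. Of the 28 members 23 were tested, and Fdps, Sqle, Tm7sf2, Soat1 and Soat2 were below the expression minimum. The count of members with an adjusted p under 0.05 was 0 by limma and 0 by voom, and over all 11708 genes tested 0 were called (0% in each direction). At an unadjusted p under 0.05 there were 3 members, all late enzymes and all lower in treated muscles. That was 13.0% of the 23 members tested, beside 1.97% of all genes lower and 1.88% higher. The median log2 fold change was -0.08 for 7 early enzymes, -0.07 for 9 late enzymes and -0.03 for the 4 regulators. The early median turned to 0.002 without vehicle library 2_3 and came to -0.18 without treated library 5_5. Of the 23 members 17 had a log2 fold change below 0, beside 51.4% of all genes. The groups overlapped for every member, beside 0.171% of all genes with every treated muscle below every vehicle muscle and 0.0854% with every treated muscle above.

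Dhcr7 again had the smallest p. It had 1.47, 1.64 and 1.99 FPKM (lowest, median, highest) in treated muscles, against 1.68, 2.44 and 2.87 FPKM in vehicle muscles. All 6 treated muscles lay below the vehicle mean and 4 below every vehicle muscle, with a log2 fold change of -0.30 ± 0.10 (limma, unadjusted p = 0.0086, adjusted p = 0.999). Nsdhl had 3.56, 4.67 and 5.08 FPKM in treated muscles, against 4.43, 5.90 and 8.23 FPKM in vehicle muscles. All 6 treated muscles were below the vehicle mean, and the log2 fold change was -0.36 ± 0.12 (adjusted p = 0.999 by limma). Cyp51 had 2.10, 2.70 and 4.63 FPKM in treated muscles, against 2.36, 3.91 and 4.74 FPKM in vehicle muscles. The highest treated muscle, 5_5, lay far above the rest of its group, and the log2 fold change was -0.33 ± 0.15 (unadjusted p = 0.0499, adjusted p = 0.999 by limma).

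Next in order of p came Lss, Mylip and Ggps1. Lss had 0.794, 1.01 and 1.24 FPKM in treated muscles, against 0.641, 1.36 and 1.56 FPKM in vehicle muscles, so the treated values lay inside the vehicle range. Mylip had 14.9, 20.6 and 22.1 FPKM in treated muscles, against 18.5, 22.2 and 25.2 FPKM in vehicle muscles. Ggps1 had 4.43, 4.63 and 5.35 FPKM in treated muscles, against 3.53, 4.39 and 5.496 FPKM in vehicle muscles. The log2 fold changes of these genes were -0.17, -0.16 and 0.09, each with a 95% interval that spans 0.

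Hmgcs1 had 8.90, 10.8 and 18.1 FPKM in treated muscles, against 10.4, 12.3 and 18.3 FPKM in vehicle muscles, for a log2 fold change of -0.12 with a 95% interval from -0.47 to 0.22. Sqle stood at 0.653, 0.928 and 1.32 FPKM in treated muscles and 0.344, 1.03 and 1.45 FPKM in vehicle muscles. Srebf2 had 4.46, 4.83 and 5.94 FPKM in treated muscles, against 4.16, 4.58 and 5.48 FPKM in vehicle muscles, for a log2 fold change of 0.05. The groups of Hmgcs1, Sqle and Srebf2 overlapped nearly throughout. Insig1 varied most, with 17.9, 27.8 and 42.7 FPKM in treated muscles, against 13.5, 33.4 and 69.0 FPKM in vehicle muscles. Its log2 fold change of -0.30 had a 95% interval from -0.99 to 0.40.

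Some members in muscle, but not all, were high in the libraries with the highest adipocyte markers. Treated library 5_5 and vehicle library 2_3 had the highest values of Hmgcs1, at 18.1 and 18.3 FPKM, and of Acat2, at 10.8 and 10.99 FPKM. They also had the highest sums of 6 adipocyte markers (Adipoq, Plin1, Retn, Cfd, Lep and Cidec), at 1574 and 1387 FPKM. The lowest adipocyte sums, 168.1 and 341.6 FPKM, were in treated library 5_2 and vehicle library 6_1, where Hmgcs1 was at 8.90 and 10.4 FPKM and Insig1 at 19.7 and 13.5 FPKM. Some other members did not follow this order. Among vehicle muscles Fdft1 was lowest in 2_3, at 17.1 FPKM, and highest in 6_1, at 31.3 FPKM. Among treated muscles it was highest in 5_5, at 33.6 FPKM. Idi1 and Hsd17b7 were lowest of the treated muscles in 5_5, at 1.16 and 1.38 FPKM. Over the groups the adipocyte sum ranged from 168.1 to 1574 FPKM in treated muscles and from 341.6 to 1387 FPKM in vehicle muscles, and all 6 markers were detected. The part of adipocyte RNA in the members' values was not tested. The 12 fatty acid synthesis genes all had lower means in treated muscles, with a median log2 fold change of -0.32, beside 51.4% of all genes below 0. At an unadjusted p under 0.05 by limma, 3 of the 12 were lower, beside 1.97% of all genes lower. These were Acss2 (-0.52 ± 0.12, adjusted p = 0.778 by limma), Me1 (-0.34) and Fasn (-0.72). None of the related lists held a called gene in muscle. Of the sterol sensing and efflux genes, Lpcat3 had the smallest p, with 11.3 ± 1.44 FPKM in treated muscles and 13.3 ± 0.493 FPKM in vehicle muscles (adjusted p = 0.999 by limma), followed by Scarb1 and Lipa. In the isoprenoid branch the smallest p belonged to Fntb, Nus1 and Pdss2.

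**Figure D4:**
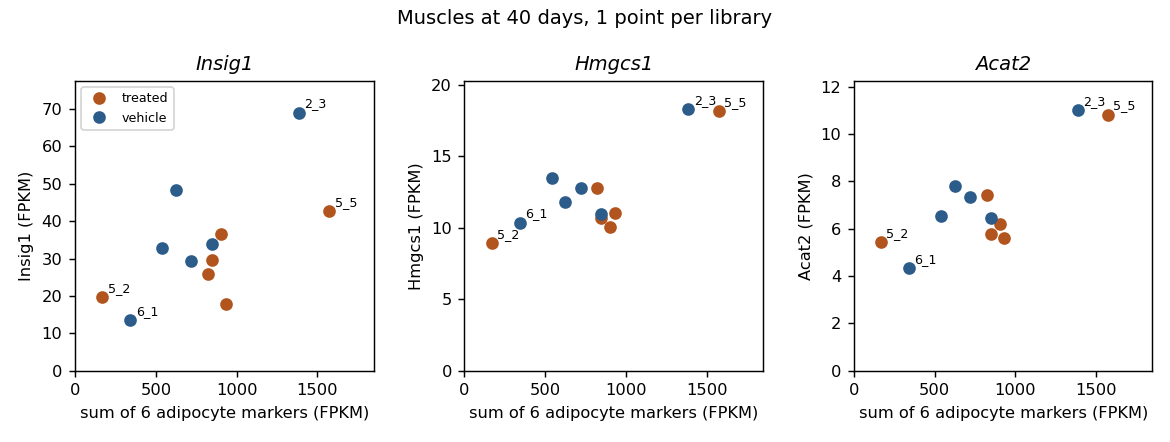
FPKM of Insig1, Hmgcs1 and Acat2 against the summed FPKM of 6 adipocyte markers in the same library, for 6 treated and 6 vehicle muscles at 40 days; 4 libraries carry their number. Libraries 5_5 and 2_3, with the highest adipocyte sums (1574 and 1387 FPKM), hold the highest Hmgcs1 and Acat2 in both groups.

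The effect of treatment in liver was set against that in muscle in one fit of all 24 libraries at 40 days, over 9436 genes tested in both tissues. The effects of 0 members differed at an adjusted p under 0.05 by limma, beside 0.0106% of all genes with a higher effect in liver and 0% with a lower one. At an unadjusted p under 0.05 there was 1 member, Sc5d, beside 2.73% of all genes higher and 2.48% lower. The log2 fold change of Sc5d was -0.49 in liver and -0.06 in muscle, a difference of -0.43 ± 0.19 (SE; unadjusted p = 0.0386, adjusted p = 0.955 by limma). The next smallest p-values belonged to Mylip, with a difference of 0.29 ± 0.15, and Hsd17b7, with -0.38 ± 0.22.

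At 24 hours there was 1 library per group, so the values have no replicate check and no test. In liver 0 members lay past 1.5-fold on the log2(FPKM + 1) scale, beside 3.48% of 12923 genes higher and 3.49% lower. Dhcr7 had 12.5 FPKM in the treated liver and 9.64 FPKM in the vehicle liver (1.27-fold), and Insig1 had 89.9 FPKM in the treated liver and 71.4 FPKM in the vehicle liver (1.26-fold). Srebf2, Hmgcs1 and Sqle stood at 12.4, 37.6 and 4.40 FPKM in the treated liver, against 11.7, 35.1 and 3.79 FPKM in the vehicle liver. In FPKM all of these were slightly higher in the treated library. The scaling factor was 14.1 M beside 17.0 M reads in the treated liver, and 16.2 M beside 17.3 M reads in the vehicle liver. In recovered reads, Hmgcs1 had 2432 in the treated and 2613 in the vehicle liver, and Srebf2 had 1259 and 1363. Dhcr7, Insig1 and Sqle had more reads in the treated liver. The lowest ratio was that of Mylip, with 9.46 FPKM in the treated and 12.2 FPKM in the vehicle liver (0.79-fold). The median log2 ratio was 0.07 for early enzymes, 0.17 for late enzymes and 0.22 for regulators, beside 0.04 over all genes.

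In muscle at 24 hours, 8 of the 26 members compared lay past 1.5-fold, all higher in the treated library, beside 7.52% of 12878 genes higher and 5.42% lower. Insig1 had 128.7 FPKM in the treated muscle and 38.7 FPKM in the vehicle muscle, 3.27-fold on this scale. That treated value was also above the 13.5 to 69.0 FPKM seen in vehicle muscles at 40 days, a level set across tables that were normalized separately. Of the early enzymes, Acat2, Pmvk and Hmgcs1 had 16.3, 23.0 and 27.4 FPKM in the treated muscle, against 7.91, 11.6 and 15.2 FPKM in the vehicle muscle. Of the late enzymes, Nsdhl, Cyp51, Sqle and Lss had 11.3, 6.16, 2.22 and 2.14 FPKM in the treated muscle, against 6.21, 3.74, 1.01 and 1.02 FPKM in the vehicle muscle. On the log2(FPKM + 1) scale the ratios of these 7 enzymes ran from 1.51-fold for Cyp51 to 1.94-fold for Acat2, smaller than the plain FPKM ratios. With 0.1 added in place of 1, the log2 ratio was 1.07 for Sqle and 1.04 for Acat2. Idi1 and Mvk, at 0.72 and 0.59, then also lay past 1.5-fold, so the count of 8 and the order depend on this scale. Srebf2 had 6.82 FPKM in the treated muscle and 5.56 FPKM in the vehicle muscle (1.19-fold). The lowest ratios were those of Mylip and Hsd17b7, with 14.0 and 3.08 FPKM in the treated muscle, against 19.4 and 4.43 FPKM in the vehicle muscle. The median log2 ratio was 0.54 for early enzymes and 0.39 for late enzymes, beside -0.02 over all genes.

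Makeup markers differed between the same 2 muscle libraries. The 6 adipocyte markers summed to 2954 FPKM in the treated muscle and 1493 FPKM in the vehicle muscle. The 5 fibre markers summed to 25012 FPKM in the treated muscle and 38563 FPKM in the vehicle muscle. The 5 hepatocyte markers summed to 5.35 FPKM in the treated muscle, where 3 of them were at 0, and to 93.0 FPKM in the vehicle muscle. The 12 fatty acid synthesis genes summed to 8563 FPKM in the treated muscle and 4249 FPKM in the vehicle muscle. In treated muscles at 40 days such a sum was mostly Scd1, 2062 of 2359 FPKM. The part of these differences in the ratios of the members was not tested.

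**Figure D5:**
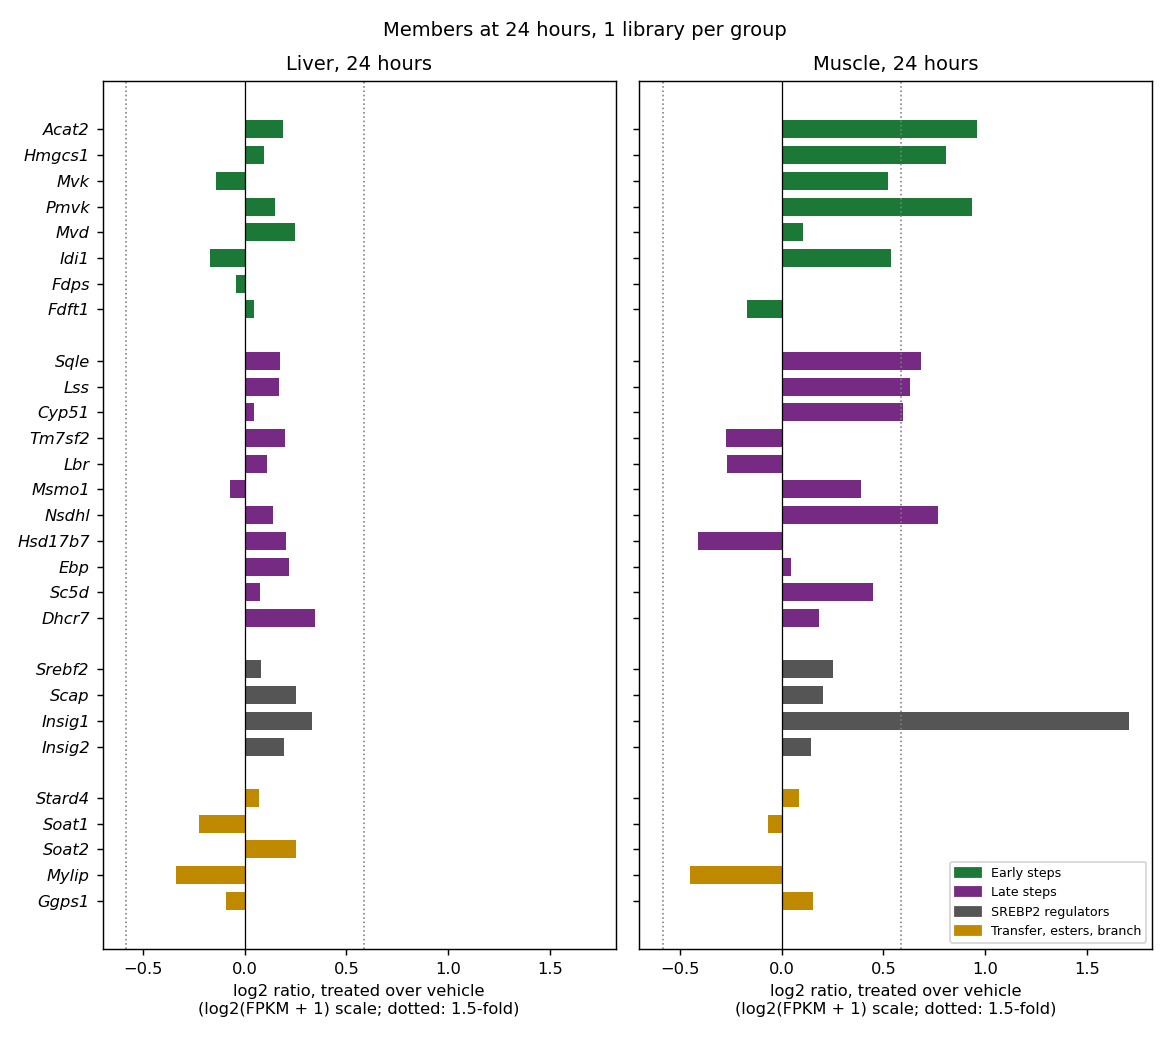
Log2 ratio of each member compared at 24 hours, treated over vehicle, in liver (left) and muscle (right), from 1 library per group on the log2(FPKM + 1) scale; dotted lines mark 1.5-fold. All liver bars lie inside the dotted lines, and 8 muscle bars pass the upper line, the longest being Insig1 at 3.27-fold.

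The table at 24 hours holds both tissues, so levels can be set side by side in its vehicle libraries. Of the 28 members 25 had a higher FPKM in the vehicle liver than in the vehicle muscle, and Lbr, Mylip and Ggps1 had a lower one. In the vehicle liver the highest levels were those of Sc5d at 90.9 FPKM, Insig1 at 71.4 FPKM, Insig2 at 53.3 FPKM and Ebp at 52.5 FPKM. In the vehicle muscle they were those of Insig1 at 38.7 FPKM, Fdft1 at 21.0 FPKM, Insig2 at 20.2 FPKM and Mylip at 19.4 FPKM. Soat2 had the highest ratio of liver to muscle, with 27.1 FPKM in the vehicle liver and 0.143 FPKM in the vehicle muscle, and the muscle value rests on 5 reads. With 1 library per tissue these levels have no spread.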

How the data were processed

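RNA-seq libraries of liver and muscle were analysed from 3 tables in which the authors deposited FPKM per gene, per the file headers. The submitters' processing notes name GRCm38 (mm10). Aligner, read counter and strand setting were not given in the sources used here. Values came out as whole reads (tolerance 0.01) for 100% of values in every library when multiplied by gene length and a scaling factor of the library. This gave 16.1 to 19.9 M reads each. The scaling factor differed from the read total. Each 40 day table was fitted on log2(FPKM + 1) with limma 3.58.1 in R 4.3.3 (empirical Bayes with trend, two-sided, Benjamini-Hochberg over all genes that reached 1 FPKM in 6 or more of the 12 libraries), which understates the change of low genes. A test of the liver effect minus the muscle effect used all 24 libraries. At 24 hours only ratios were computed. The script was tested on simulated data. Values of single libraries are given for the 8 members with the smallest p in liver, the 6 in muscle, and Srebf2, Hmgcs1, Sqle and Insig1, and of each related list the 3 genes with the smallest p are named, except some that are not reported here. Alternatives were a pseudocount of 0.1, no filter, aligned medians, voom on the recovered reads, each library left out and, for the difference between tissues, a replicate block. Near-identical copies were found with BLAST 2.17.0 in GENCODE transcripts, and figures were drawn with matplotlib 3.10.9. The members and lists were chosen with earlier results of these data known, and the lists are no independent support.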

Additional observations from a re-analysis of the deposited data

Results flagged for a closer look

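Of 112 groups of 6 libraries examined, 14 had a highest or lowest library that stood far from the other 5, where chance gives about 1 in 20. In treated muscle, library 5_5 was the distant one for 8 members. It was highest for Acat2 (10.8 FPKM), Pmvk (21.0 FPKM), Mvd (12.5 FPKM), Cyp51 (4.63 FPKM), Msmo1 (2.02 FPKM), Ebp (9.22 FPKM) and Srebf2 (5.94 FPKM), and lowest for Lbr (5.64 FPKM). The same library had the highest adipocyte marker sum, 1574 FPKM, and its part in these values was not tested.

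In treated liver, library 4_5 stood above the others for Soat1 (3.63 FPKM, the others between 1.34 and 2.03 FPKM) and Mylip (9.20 FPKM, the others between 4.89 and 6.33 FPKM). It also had the highest Kupffer marker sum, 1572 FPKM. Treated library 5_2 stood above the others for Soat2 (21.8 FPKM). In vehicle liver, library 2_4 was far below the others for Msmo1 (6.00 FPKM), library 3_2 far above them for Dhcr7 (15.5 FPKM) and library 2_1 far above them for Ggps1 (3.00 FPKM).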

How the results depend on the processing

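No member reached an adjusted p under 0.05 under any alternative in either tissue or in the difference between tissues; the smallest was 0.0878 in liver, without treated library 5_2, and 0.466 in muscle, without vehicle library 6_1. Of 432 liver member values under alternatives, 431 kept their direction, the exception being Lbr, which ranged from -0.0103 to 0.14 as libraries were left out. The 9 muscle members whose fold changes are printed with the muscle results kept their direction in all 144 values. Of these, 6 were chosen for the smallest p, which favours a stable direction. The other muscle members, such as Stard4 with a log2 fold change of -0.002, are not counted here. As libraries were left out, liver members at an unadjusted p under 0.05 ranged from 5 to 13, and all genes called in liver ranged from 0 to 83 (28 with all libraries, 0 with no filter on low values, 29 by voom). In muscle, all genes called ranged from 0 to 1 and the early median from -0.18 to 0.00191. For the difference between tissues, all genes called ranged from 0 to 2 (1 with all libraries), and members at an unadjusted p under 0.05 from 0 to 2. The causes were not tested. With the replicate block, which pairs liver and muscle libraries of the same number, both counts were 3, in place of 1. The labels do not say whether same-numbered libraries come from 1 mouse. The deviations of 7 of 12 same-numbered pairs had a correlation over 0.1, and 7 of 12 libraries matched their own number best, a hint from the data and not the design. The numbers were not taken as pairing the libraries in the main fit, since the labels do not state it. Not every pair passed 0.1, but a weak correlation between tissues cannot show that libraries are unpaired. Depth of 16.1 to 19.9 M reads limits the lowest members, Fdps and Soat2 in muscle, which had 10 reads or fewer in each library.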
